A study of Mus musculus with 6 samples.

Results

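The dystrophin glycoprotein complex joins the actin cytoskeleton beneath the muscle membrane to the extracellular matrix. Dystrophin, or its autosomal paralog utrophin, binds actin at one end and beta-dystroglycan at the other, while alpha-dystroglycan on the outside binds laminin through a sugar chain. The sarcoglycans brace this link in the membrane, and the dystrobrevins and syntrophins form its cytoplasmic arm. Loss of dystrophin causes Duchenne muscular dystrophy, and loss of single sarcoglycans causes limb-girdle muscular dystrophies. The genes described here are the 9 named for the complex, Dmd, Utrn, Dag1, Sgca, Sgcb, Sgcd, Sgce, Sntb1 and Dtna, found by symbol among 55414 gene identifiers in the count table.

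RNA was sequenced from C2C12 cells, an immortalised mouse myoblast line that can differentiate into myotubes, to ask which genes change when the transcription factor USF2 is knocked down. siUsf2 cells (3 libraries) received siRNA-USF2 and siControl cells (3 libraries) received siRNA-NC, the control siRNA, each with lipofectamine 3000. All cells were labelled WT and were described as grown as myoblasts in serum medium, although myotube markers were also expressed in siControl. The time of harvest after transfection is not given in the sources used here. The labels do not say that replicates were separate cultures, so p-values measure the spread between these libraries, which may be technical.

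The library labelled siUsf2 3 stood apart and is shown separately. It held 3414565 counts, against 14790997 to 17715250 in the other 5, and pseudogenes took 0.974% of them, against 14.0% to 15.3%. Usf2 itself (ENSMUSG00000058239) was at 17.1, 15.3 and 30.8 CPM (counts scaled to the library total) in siUsf2 1 to 3, against 26.2, 31.2 and 23.0 CPM in siControl 1 to 3. The library labelled siUsf2 3 thus lay within the siControl range for the targeted gene, against its label, while siUsf2 1 and 2 lay below it. Each test of siUsf2 against siControl was therefore run with all 6 libraries and with 5, without siUsf2 3. The 5-library fold change of Usf2 was -0.74 on the log2 scale (adjusted p = 6.43e-04 by edgeR, SE 0.14), and with 6 libraries it was -0.40 (adjusted p = 0.702 by edgeR, SE 0.28). Of 6 myoblast markers, Myod1, Myf5, Des, Cdh15 and Itga7 were detected well enough to test, whereas the listed adipocyte, leukocyte, endothelial and neural markers summed to at most 4.69 CPM per list in any library, and Lep, Adgre1 and Sox10 were at 0 throughout. None of the testable genes of those 4 lists was called in the 5 libraries, where edgeR called 11.4% of all genes tested. The fibroblast list, whose collagens myoblasts also express, summed to 3460 and 3468 CPM in siUsf2 1 and 2. It summed to 7475 CPM in siUsf2 3 and to 3358 to 3558 CPM in siControl. In the 5 libraries 1 of its 5 genes (Col1a1) rose, where 4.97% of all genes tested did.

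Sequences before RefSeq start sites are shown for 4 members because USF2 binds the E-box CACGTG. RefSeq windows (GRCm38.p6) from 250 bases before to 50 after a start site were held for 6 of the 9 members; Sgce, Sntb1 and Dtna had none. The 250 bases before the start site are printed for Sgcd (chr11:47379326-47379575), Utrn (chr10:12861736-12861985), Sgca (chr11:94976328-94976577) and Dag1 (chr9:108263959-108264208), all from the minus strand, with CACGTG in capitals.
Sgcd: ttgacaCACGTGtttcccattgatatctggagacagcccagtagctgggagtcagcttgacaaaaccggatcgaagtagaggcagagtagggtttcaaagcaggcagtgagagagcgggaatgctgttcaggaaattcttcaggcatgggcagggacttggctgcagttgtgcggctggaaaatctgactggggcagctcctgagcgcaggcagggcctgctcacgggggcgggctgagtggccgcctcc
Utrn: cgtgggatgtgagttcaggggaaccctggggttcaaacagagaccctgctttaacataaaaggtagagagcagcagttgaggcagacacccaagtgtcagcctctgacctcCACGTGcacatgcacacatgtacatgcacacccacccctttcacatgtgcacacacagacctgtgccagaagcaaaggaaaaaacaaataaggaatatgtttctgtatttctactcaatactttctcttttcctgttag
Sgca: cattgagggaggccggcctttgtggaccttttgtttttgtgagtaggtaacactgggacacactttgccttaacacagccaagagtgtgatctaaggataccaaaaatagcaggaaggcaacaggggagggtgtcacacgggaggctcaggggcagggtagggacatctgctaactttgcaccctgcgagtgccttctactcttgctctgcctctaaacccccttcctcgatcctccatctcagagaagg
Dag1: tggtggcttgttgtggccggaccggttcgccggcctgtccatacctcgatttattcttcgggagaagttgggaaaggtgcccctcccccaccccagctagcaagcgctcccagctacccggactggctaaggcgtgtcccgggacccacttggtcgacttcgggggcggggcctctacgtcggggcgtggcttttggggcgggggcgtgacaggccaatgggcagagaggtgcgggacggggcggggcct
CACGTG reads the same on both strands. It was found at -244 in Sgcd and at -139 in Utrn, counted from the start site as 0, and in none of the windows of Dmd, Dag1, Sgca and Sgcb. Of 32851 promoter windows of this length, 7.15% held it. CAGCTG, the E-box often bound by MYOD, also reads the same on both strands and was in no member's window, against 16.3% of all windows. The Sgca and Dag1 start sites are the outermost ones of GENCODE M21, but those of Utrn and Sgcd lie 7630 and 609644 bases inside the annotated gene. The gene counts do not show which start sites were used, so the Utrn and Sgcd windows may not be promoters. A match of letters is not a binding site.

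Almost no reads were counted for dystrophin in these libraries. Dmd (ENSMUSG00000045103, GRCm38 chromosome X, 82948870 to 85206141, plus strand, 84 merged exons) received 0, 1 and 0 counts in siUsf2 1 to 3, against 0, 3 and 0 counts in siControl 1 to 3. These are 4 counts among 82677367 over all libraries, or 0.0484 CPM (95% Poisson interval 0.0132 to 0.124). Where no read was counted, the limit of 3 counts corresponds to 0.190 CPM in siUsf2 1, 0.879 CPM in siUsf2 3, 0.203 CPM in siControl 1 and 0.169 CPM in siControl 3; these limits and all intervals cover counting error only. No exon of another GENCODE M21 gene overlaps the Dmd exons, but the annotation used for counting was not given. Because counts are summed per gene, they include the short dystrophin isoforms that start from internal promoters. Dmd did not pass the filter on low counts, and no fold change is given.

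Utrophin was abundant. Utrn (ENSMUSG00000019820, chromosome 10, 12382188 to 12869365, minus strand) had 2931, 2852 and 591 counts in siUsf2 1 to 3, against 2570, 2283 and 3362 counts in siControl 1 to 3. As CPM these were 185, 191 and 173 in siUsf2, against 174, 143 and 189.8 in siControl. The groups overlapped, and the lowest value was siControl 2. Its log2 fold change was 0.14 in the 5 libraries (adjusted p = 0.398 by edgeR, SE 0.10) and 0.09 in the 6 libraries (adjusted p = 0.875 by edgeR, SE 0.13), so no difference was detected. In bulk RNA, fewer cells of a type and less RNA per cell cannot be told apart. The log2 fold change came to 0.25 without siControl 3 in the 5 libraries, where it passed (edgeR adjusted p = 0.0317; 0.0142 to 0.886 over the 16 alternatives).

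**Figure D1:**
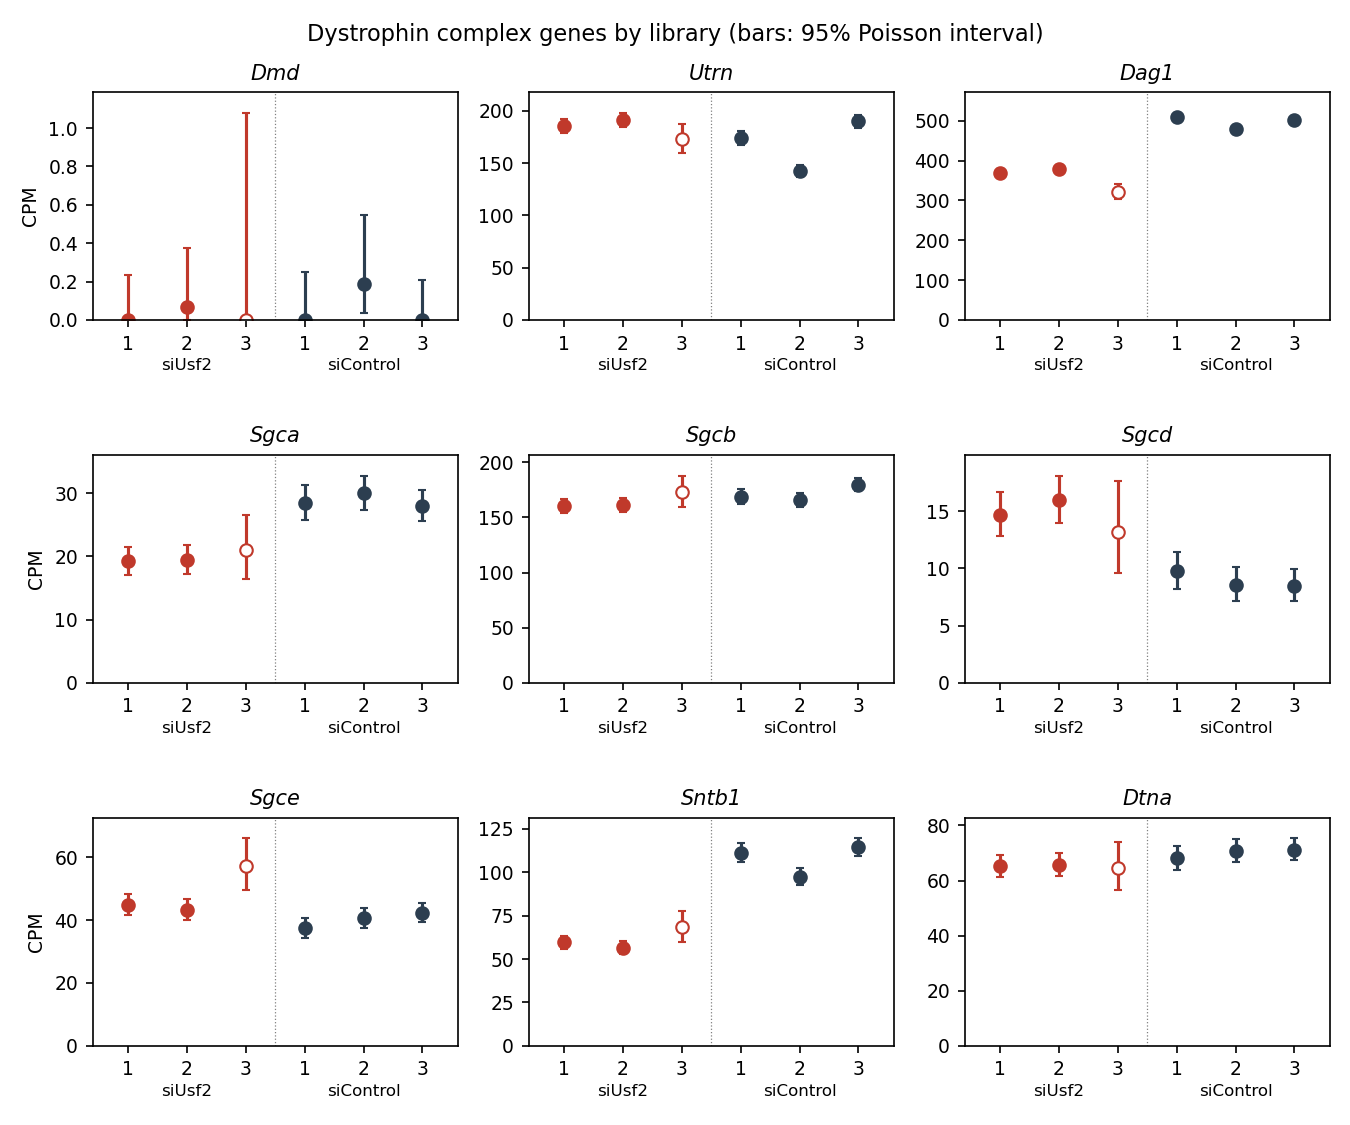
CPM (y axis, from 0) of each member in siUsf2 1 to 3 (red, siUsf2 3 open) and siControl 1 to 3 (dark), with exact 95% Poisson intervals as bars. Sntb1, Sgca and Dag1 are lower in every siUsf2 library and Sgcd is higher, while Utrn overlaps between groups and Dmd has 4 counts in all.

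Of the 8 members tested in the 5 libraries, 3 fell (Sntb1, Sgca and Dag1), 1 rose (Sgcd) and 4 did not pass by edgeR; over all 17217 genes tested, 6.4% fell and 4.97% rose. With upper-quartile normalization 55.5% of all calls were higher, against 43.7% with the normalization used here. The members' median log2 fold change was -0.11, against -0.01 over all genes tested. In the 6 libraries edgeR called none of the 8 members, where 0.042% of 16662 genes fell and 0% rose. At an unadjusted p below 0.05 there were 4 of them, against 10.5% of all genes tested. There DESeq2 gave 1 member as higher and 3 as lower, against 1.78% and 2.46% of all genes tested. With limma-voom 0 members were higher and 1 was lower, against 0.114% and 0.51% of all genes. Values did not overlap between the 6 libraries' groups for 4 members that were lower (Sntb1, Sgca, Dag1 and Dtna) and 2 that were higher (Sgcd and Sgce), against 11.2% and 11.4% of all genes tested, or 22.6% in either direction. In the 5 libraries Sgcb joined those that were lower, making 5 lower and 2 higher, where 19.5% of all genes were lower without overlap and 21.8% higher, 41.3% together.

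Sntb1 (ENSMUSG00000060429, chromosome 15, 55636388 to 55906949, minus strand) encodes beta-1-syntrophin, an adaptor that docks signalling proteins and channels to the complex. It showed the largest change among the members tested. It was at 59.6, 56.6 and 68.2 CPM in siUsf2 1 to 3, against 111, 97.3 and 114 CPM in siControl 1 to 3. Every siUsf2 library lay below every siControl library, siUsf2 3 included. Sntb1 fell to 0.535 of the siControl level in the 5 libraries, or by 0.90 on the log2 scale (adjusted p = 7.59e-08 by edgeR, SE 0.10). In the 6 libraries the log2 fold change was -0.84 (adjusted p = 0.0694 by edgeR, SE 0.10), outside the threshold, with adjusted p of 3.8e-08 to 0.739 over the 17 alternatives.

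Dag1 (ENSMUSG00000039952, chromosome 9, 108204634 to 108263958, minus strand) encodes the precursor that is cut into alpha- and beta-dystroglycan. It was at 369, 380.2 and 322 CPM in siUsf2 1 to 3, against 509, 479 and 502 CPM in siControl 1 to 3. The groups did not overlap, and the library labelled siUsf2 3 was the lowest of all. Dag1 fell to 0.748 of the siControl level in the 5 libraries (log2 fold change -0.42, adjusted p = 9.95e-04 by edgeR, SE 0.08). Without siUsf2 1 the call ended at a log2 fold change of -0.38 (edgeR adjusted p = 0.0663; 4.61e-06 to 0.0663 over the 16 alternatives). In the 6 libraries it was -0.51 (adjusted p = 0.183 by edgeR, SE 0.10). The promoter window printed for Dag1 above is the one at this gene's annotated start.

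Of the 4 sarcoglycan members, Sgca fell and Sgcd rose in the 5 libraries, and the other two did not pass. Sgca (ENSMUSG00000001508, chromosome 11, 94962791 to 94976327, minus strand) encodes alpha-sarcoglycan, which is largely restricted to striated muscle. It was at 19.2, 19.4 and 21.1 CPM in siUsf2 1 to 3, against 28.4, 30.0 and 27.9 CPM in siControl 1 to 3. All 3 siUsf2 libraries lay below all siControl libraries, and they averaged 19.9 ± 1.02 CPM, against 28.8 ± 1.07 CPM (SD, n = 3 each). Sgca fell to 0.666 of the siControl level in the 5 libraries (log2 fold change -0.59, adjusted p = 0.00186 by edgeR, SE 0.13); in the 6 libraries the log2 fold change was -0.57 (adjusted p = 0.118 by edgeR, SE 0.09).

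Sgcd (ENSMUSG00000020354, chromosome 11, 46896253 to 47988969, minus strand) encodes delta-sarcoglycan, the partner of beta-sarcoglycan in the core of the subcomplex. It moved the other way from Sgca. It had 232, 238 and 45 counts in siUsf2 1 to 3, against 144, 137 and 150 counts in siControl 1 to 3. As CPM these were 14.7, 15.9 and 13.2 in siUsf2, against 9.74, 8.56 and 8.47 in siControl. The siUsf2 values were all higher, although the interval of siUsf2 3 (9.61 to 17.6 CPM) reaches below the 9.74 CPM of siControl 1. Sgcd rose to 1.70 times the siControl level in the 5 libraries (log2 fold change 0.77, adjusted p = 0.00236 by edgeR, SE 0.17); in the 6 libraries the log2 fold change was 0.68 (adjusted p = 0.231 by edgeR, SE 0.16). It is the lowest of the tested members by count. The start site of its window printed above, which holds CACGTG, lies 609644 bases inside the annotated gene. The part of CACGTG in this change was not tested.

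Sgcb (ENSMUSG00000029156, chromosome 5, 73632749 to 73647790, minus strand), beta-sarcoglycan, was at 160.5, 161 and 173 CPM in siUsf2 1 to 3, against 169, 166 and 179.7 CPM in siControl 1 to 3. The groups overlapped through siUsf2 3, and the difference in the 5 libraries was -0.10 on the log2 scale (adjusted p = 0.490 by edgeR, SE 0.09). Sgce (ENSMUSG00000004631, chromosome 6, 4674350 to 4747207, minus strand) encodes epsilon-sarcoglycan, a broadly expressed relative of alpha-sarcoglycan from an imprinted gene. It was at 45.0, 43.3 and 57.4 CPM in siUsf2 1 to 3, against 37.5, 40.5 and 42.3 CPM in siControl 1 to 3. All siUsf2 values were higher, siUsf2 3 most of all, but the log2 fold change did not pass at 0.12 in the 5 libraries (adjusted p = 0.507 by edgeR, SE 0.11) or at 0.24 in the 6 (adjusted p = 0.584 by edgeR, SE 0.12).

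Dtna (ENSMUSG00000024302, chromosome 18, 23415135 to 23659715, plus strand), alpha-dystrobrevin, which binds dystrophin and the syntrophins, was the member with the smallest spread among siUsf2 libraries relative to its level. It was at 65.2, 65.7 and 64.7 CPM in siUsf2 1 to 3, against 68.15, 70.8 and 71.2 CPM in siControl 1 to 3. The siUsf2 values were all lower by a small margin, and the difference in the 5 libraries, -0.11 on the log2 scale, did not pass (adjusted p = 0.492 by edgeR, SE 0.09). An antisense gene, Gm47898, overlaps 90 bases of its exons and had at most 6 counts in any library. With no strand setting known, reads of the overlap cannot be assigned to one gene.

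**Figure D2:**
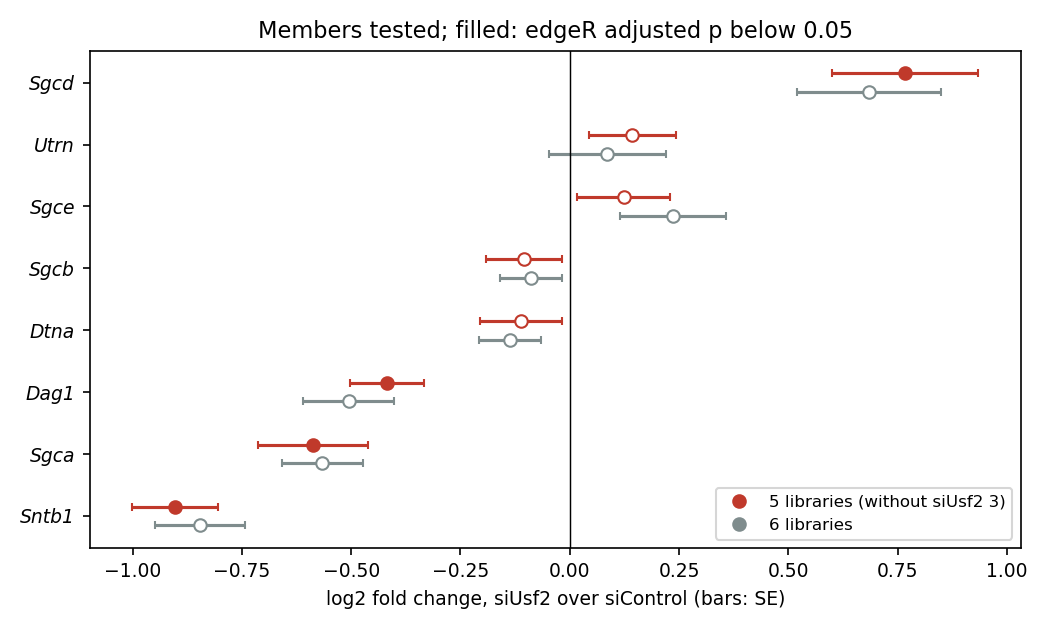
Log2 fold change of siUsf2 over siControl (x axis) for the 8 members tested, with SE as bars, in the 5 libraries (red) and the 6 libraries (grey); filled points passed an edgeR adjusted p below 0.05. Sntb1, Sgca and Dag1 lie left of 0 and Sgcd right of it in both, and the filled points are all from the 5 libraries.

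Ratios within a library do not depend on how libraries are scaled. The Sgca to Sgce count ratio was 0.428, 0.449 and 0.369 in siUsf2 1 to 3, against 0.757, 0.740 and 0.660 in siControl 1 to 3, so every siUsf2 library was below every siControl library. The mean log2 ratio differed by -0.79 (-1.27 ± 0.15 in siUsf2 and -0.48 ± 0.11 in siControl, SD, n = 3 each; exact permutation p = 0.1, two-sided, the smallest that 3 against 3 allows). Without siUsf2 3 it differed by -0.71 (exact permutation p = 0.2, the smallest for 2 against 3). The Sgcb to Sgcd count ratio was 10.9, 10.1 and 13.0 in siUsf2 1 to 3, against 17.3, 19.3 and 21.2 in siControl 1 to 3. It too was lower in every siUsf2 library, with a difference in mean log2 ratio of -0.77 in the 6 libraries (exact permutation p = 0.1) and of -0.87 in the 5 (exact permutation p = 0.2). These designs cannot reach p below 0.05. No Dmd to Utrn ratio is given, because Dmd had at most 3 counts in a library.

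**Figure D3:**
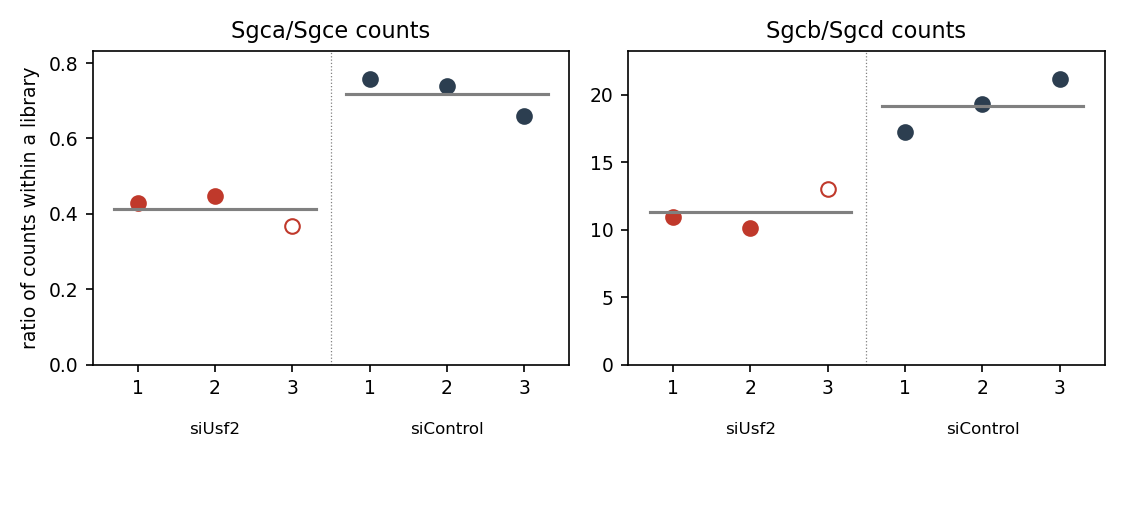
Ratio of counts within each library (y axis, from 0) for Sgca over Sgce and Sgcb over Sgcd, in siUsf2 1 to 3 (red, siUsf2 3 open) and siControl 1 to 3 (dark), with the geometric mean of each group as a line. Both ratios are lower in all 3 siUsf2 libraries, at 0.369 to 0.449 against 0.660 to 0.757 and at 10.1 to 13.0 against 17.3 to 21.2.

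Levels between members were compared as CPM per kb of merged exon length, with siUsf2 3 included. In siUsf2, Dag1 was highest at 56.2 ± 4.91 and Sgcb next at 40.7 ± 1.78 CPM per kb (SD, n = 3). Sntb1 at 11.5 ± 1.14, Sgca at 11.5 ± 0.591 and Utrn at 10.7 ± 0.535 CPM per kb overlapped and were not ordered beyond their spread. Sgce at 4.58 ± 0.726, Dtna at 3.85 ± 0.0287 and Sgcd at 1.77 ± 0.167 CPM per kb followed, without overlap between neighbours. In siControl the order was Dag1 at 78.1 ± 2.48, Sgcb at 42.3 ± 1.82, Sntb1 at 20.2 ± 1.71, Sgca at 16.6 ± 0.619 and Utrn at 9.86 ± 1.40 CPM per kb (SD, n = 3). Dtna at 4.14 ± 0.0993, Sgce at 3.78 ± 0.229 and Sgcd at 1.08 ± 0.0857 CPM per kb came last, and no neighbours overlapped there. Sntb1 and Sgca were therefore clear of Utrn in siControl but not in siUsf2. Dtna and Sgce changed places, although edgeR called neither gene in the 5 or the 6 libraries. In siUsf2 1 and 2 alone, Sgce averaged 4.16 and Dtna 3.87 CPM per kb. Merged exons include alternative ends, so a gene with long rarely used exons reads low on this scale.

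**Figure D4:**
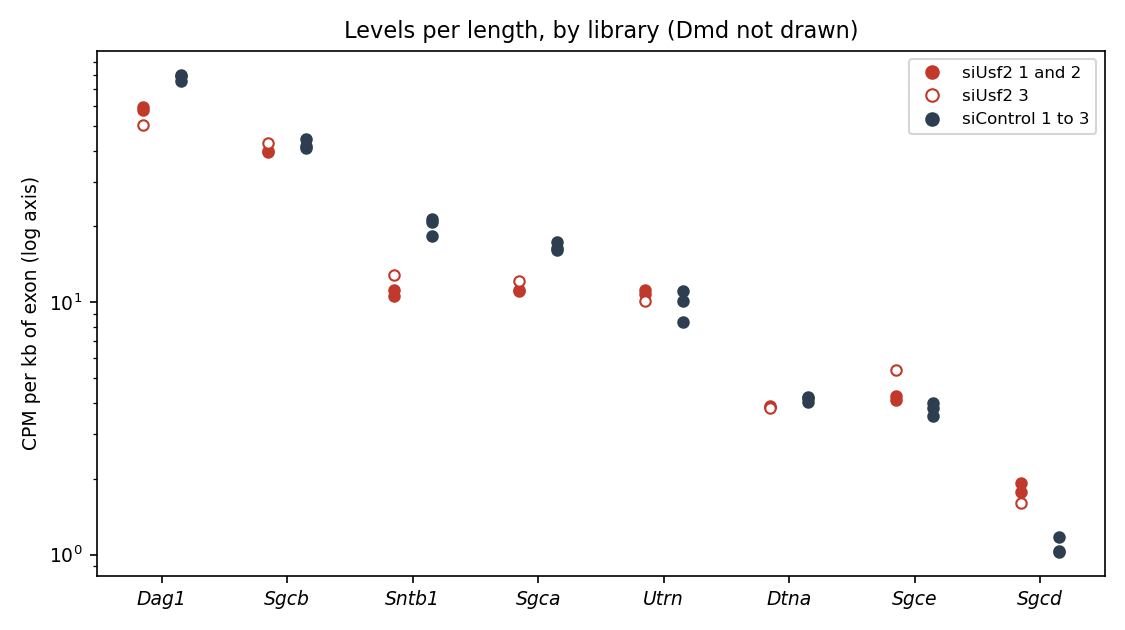
CPM per kb of merged exon (y axis, log scale) of 8 members, ordered by siControl level, with one point per library for siUsf2 1 and 2 (red), siUsf2 3 (open) and siControl 1 to 3 (dark). Levels run down from Dag1 to Sgcd, and Sntb1, Sgca and Utrn share one level in siUsf2.

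Differentiation markers were also lower in siUsf2 1 and 2. All 8 listed myotube markers (Myog, Mymk, Mymx, Acta1, Myh3, Ckm, Tnnt3 and Actn2) fell in the 5 libraries, where 6.4% of all genes did. Their summed level was 818 and 909 CPM in siUsf2 1 and 2, 1662 CPM in siUsf2 3 and 3675 to 3907 CPM in siControl. The control cells, although described as myoblasts, thus expressed myotube markers. In siControl Acta1 averaged 1657 CPM and Myog 1037 CPM, while Actn2 averaged 1.17 CPM. In siUsf2 3 the markers other than Tnnt3 also lay below every siControl library, but Tnnt3 was at 92.8 CPM there, against 42.9 to 47.9 CPM in siControl. With all 6 libraries edgeR called none of the 8 markers, where it called 0.042% of all genes lower. At an unadjusted p below 0.05 by edgeR there were 7 markers, against 10.5% of all genes. DESeq2 called 7 lower and limma-voom 5 lower, against 2.46% and 0.51% of all genes. Of the myoblast markers Myf5 rose, and Myod1, Des, Cdh15 and Itga7 fell, and the list summed to 2074 and 2125 CPM in siUsf2 1 and 2, to 2921 CPM in siUsf2 3 and to 2435 to 2989 CPM in siControl. The part of these markers in the members' changes was not tested.

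Beyond the 9 members, 51 other genes of the pathway were listed by role. Of the 43 tested in the 5 libraries, 6 rose, 7 fell and 30 did not pass by edgeR, at a median log2 fold change of -0.03. Over all 17217 genes tested there, 4.97% rose and 6.4% fell. In the 6 libraries edgeR called none of the 43, and 10 had an unadjusted p below 0.05, where 10.5% of all genes tested did. There DESeq2 gave 4 as higher and 2 as lower, beside 1.78% and 2.46% of all genes. With limma-voom 0 were higher and 1 was lower, beside 0.114% and 0.51% of all genes. In the 5 libraries the count that rose was 3 without siControl 2, and the count that fell was 4 without siControl 1. Over all genes 485 rose without siControl 2 and 586 fell without siControl 1, against 855 and 1102 with all 5.

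Among 11 further subunits and partners, 7 were tested. In the 5 libraries, where 6.4% of all genes tested fell and 4.97% rose, 3 of the 7 fell and none rose. Nos1, the neuronal nitric oxide synthase, was among them and fell by 0.89 on the log2 scale (adjusted p = 0.0162 by edgeR, SE 0.24) at a low level of 3.48 to 4.36 CPM in siUsf2, against 5.87 to 8.64 CPM in siControl. Cav3, caveolin of mature muscle, and Sgcz, zeta-sarcoglycan, were too low to test.

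Of 18 genes that glycosylate alpha-dystroglycan, 16 were tested and edgeR called none in the 5 libraries, with 1 at an unadjusted p below 0.05, against 24.9% of all genes tested. DESeq2 and limma-voom also called 0 of them, where they called 9.6% and 10.4% of all genes and edgeR 11.4%. Among those with the smallest p were Pomt1, an O-mannosyltransferase, at a log2 fold change of 0.41 (edgeR adjusted p = 0.0833), and Dpm1, a subunit of dolichol-phosphate mannose synthase, at 0.39 (edgeR adjusted p = 0.203).

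Of 10 matrix ligands and laminin chains, 4 rose and none fell in the 5 libraries, beside 4.97% and 6.4% of all genes tested. Lama4, the laminin alpha-4 chain, was at 129, 126 and 157 CPM in siUsf2 1 to 3, against 90.3, 84.2 and 99.0 CPM in siControl 1 to 3 (log2 fold change 0.47, adjusted p = 6.48e-04 by edgeR, SE 0.09). Lamc1, the gamma-1 chain shared by most laminins, rose by 0.36 (adjusted p = 0.00492 by edgeR, SE 0.08), Lama5, the alpha-5 chain, by 0.30 (adjusted p = 0.0361 by edgeR, SE 0.09), and Lamb2, the beta-2 chain, by 0.27 (adjusted p = 0.0491 by edgeR, SE 0.09).

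Of 12 cytoskeletal and membrane partners, of which Des and Itga7 are also on the myoblast list, 10 were tested. In the 5 libraries 2 of them rose and 4 fell, beside 4.97% and 6.4% of all genes tested. Cavin4, the muscle cavin of caveolae, was at 30.9, 35.1 and 27.2 CPM in siUsf2 1 to 3, against 84.0, 92.0 and 109 CPM in siControl 1 to 3 (log2 fold change -1.54, adjusted p = 1.21e-10 by edgeR, SE 0.12), with no overlap between groups. Itga7, the laminin-binding integrin of muscle, fell by 0.45 (adjusted p = 5.83e-04 by edgeR, SE 0.09), Des, the muscle intermediate filament protein desmin, by 0.35 (adjusted p = 0.0146 by edgeR, SE 0.09), and Ank2, an ankyrin adaptor, by 0.43 (adjusted p = 0.0459 by edgeR, SE 0.14). In siUsf2 3, Itga7 was at 804 CPM, above every siControl library, and Des at 1584 CPM, within their range. Ank3, another ankyrin, rose by 0.44 (adjusted p = 0.00177 by edgeR, SE 0.09) and Vcl, the focal adhesion protein vinculin, by 0.27 (adjusted p = 0.0342 by edgeR, SE 0.08).

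**Figure D5:**
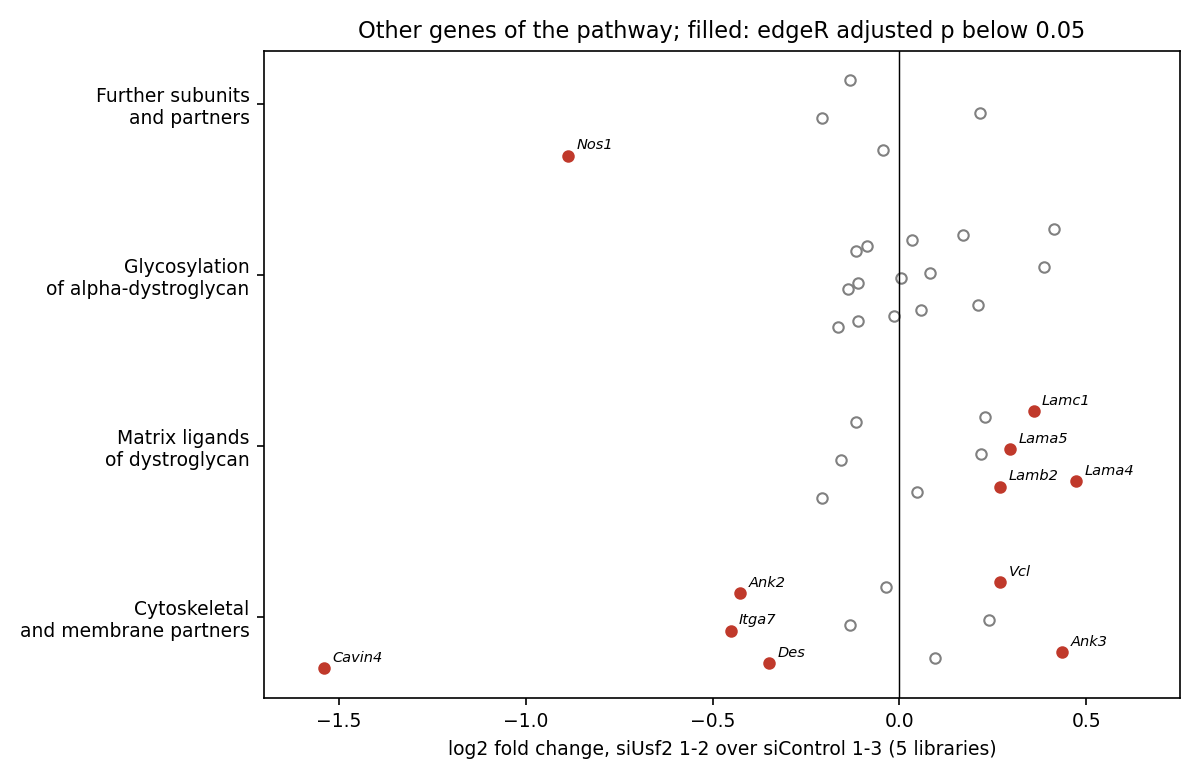
Log2 fold change of siUsf2 1 and 2 over siControl 1 to 3 (x axis) for other pathway genes tested, without those not reported here, in rows by role (vertical position within a row has no meaning); filled points passed an edgeR adjusted p below 0.05. In the subunit row Nos1 is filled and lies left of 0, the 4 filled matrix genes right of 0, and no glycosylation gene is filled.

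For the 4 members called, the library labelled siUsf2 3 lay on the same side of siControl as siUsf2 1 and 2. Over all genes tested in the 6 libraries, 11.2% were lower and 11.4% higher without overlap. How often siUsf2 3 did so among all genes called in the 5 libraries was not tested. The library siUsf2 3 lay below every siControl library for Sntb1, Sgca and Dag1 and above every one for Sgcd. It was at 0.23, 0.13, -0.22 and -0.22 on the log2 scale from the mean of siUsf2 1 and 2. Usf2 in that library was 0.92 above that mean.

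For each member called, the genes most alike in pattern were sought among 9627 protein-coding genes, as the smallest root mean square difference of centred log2 CPM over the 6 libraries. They included Ccdc141 (0.0731) and Camk2a (0.0798) for Sntb1, Arl6ip5 (0.0263) and Bend3 (0.0505) for Sgca, Qtrt2 (0.0340) for Dag1, and Nt5e (0.0808) and Rhou (0.0842) for Sgcd. Ccdc141, for example, was at 114, 129 and 143 CPM in siUsf2 1 to 3. In siControl 1 to 3 it was at 232, 205 and 240.5 CPM. Its likeness to Sntb1 follows from how it was chosen.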

How the data were processed

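RNA sequencing of 6 C2C12 libraries was analysed. Read counts per Ensembl gene were deposited by the authors as whole numbers, not normalized. The submitters' processing notes list mm10, HISAT2 and featureCounts, with FastQC, Trimmomatic and DESeq2. Strand setting, annotation and tool versions were not given in the sources used here. Libraries held 3414565 to 17715250 counts, so low genes are least precise in siUsf2 3. Another table deposited by the authors holds CPM, although named for TPM; 100% of its values gave whole reads (tolerance 1e-06), equal to the counts, and edgeR on those reads called 0 genes higher and 7 lower in the 6 libraries and 855 and 1102 in the 5. Symbols, coordinates and merged exon lengths came from GENCODE M21, which held 52133 of the 55414 identifiers.

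siUsf2 was compared with siControl with edgeR 4.0.16 in R 4.3.3 (filterByExpr, TMM, robust quasi-likelihood test, two-sided, Benjamini-Hochberg adjustment over all genes tested, called below 0.05), on 6 libraries and on 5. The test was tried on counts simulated with the same spread for all genes and no library set apart. These settings differ from the data, so nothing is concluded from that trial. limma 3.58.1 and DESeq2 1.42.0 were alternatives, with other normalizations, filters, a replicate block and each library left out. Count ratios used an offset of 0.5. Named genes are all members, Usf2, called genes of the pathway list, the 3 smallest p per role and the 2 genes most alike to each called member whose log2 CPM averaged 3 or more (prior count 2), except some genes that are not reported here. The members and lists were chosen with earlier results of these data known.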

Additional observations from a re-analysis of the deposited data

How the results depend on the processing

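The 5-library calls of Sntb1, Sgca and Sgcd held under all 16 alternatives; that of Dag1 ended without siUsf2 1. Their log2 fold changes ranged from -0.97 to -0.84, -0.61 to -0.55, 0.69 to 0.84 and, for Dag1, -0.45 to -0.38. In the 6 libraries the count of members called higher was 1 with DESeq2, and 0 to 1 with each library left out; the count called lower was 3 with DESeq2, 1 with limma-voom, 1 with no filter on low counts, and 0 to 3 with each library left out, the upper ends without siUsf2 3. In the 5 libraries it was 1 to 2 higher with each library left out, Utrn joining Sgcd without siControl 3. The log2 fold change of Utrn in the 6 libraries ran from -0.027 (reversed, without siControl 2) to 0.19 (without siControl 3) with each library left out.

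For the other pathway genes in the 6 libraries, DESeq2 called 4 higher and 2 lower, limma-voom 1 lower, and no filter 1 lower; leaving out each library gave 0 to 6 higher and 0 to 7 lower, the upper ends without siUsf2 3. In the 5 libraries, where 6 were higher and 7 lower, an adjusted p below 0.01 left 3 higher and 4 lower. Leaving out each siControl library gave 3 to 9 higher (3 without siControl 2) and 4 to 8 lower (4 without siControl 1). Over all genes the same fits gave 469 to 1596 higher and 586 to 1964 lower, against 855 and 1102 with all 5. The cause of these moves was not tested.

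The deviations of libraries with the same number correlated at -0.0739, -0.0049 and -0.0727, but siUsf2 3 dominates these deviations, so the check cannot show whether numbers 1 and 2 pair. The labels do not say that they do. A replicate block in the 5 libraries also takes siControl 3, which has no partner, out of the comparison. With it 2 members were higher, Utrn joining Sgcd at 0.25 (edgeR adjusted p = 0.0142), as without siControl 3 and no block. Over all genes it called 1719 higher and 2270 lower, against 1596 and 1964 without siControl 3 and 855 and 1102 with all 5. With all 6 it called 0 and 0, against 0 and 7. The sarcoglycan ratios kept their direction under every alternative run, with ranges of -0.85 to -0.71 and -0.87 to -0.69 in the 6 libraries and each library left out, and no Dmd to Utrn ratio could be had. In the shallowest library, siUsf2 3, Sgcd rests on 45 counts and Dmd below 0.879 CPM was not detectable.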

Other observations

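The neighbours of Dmd were looked at after its counts were seen. Of the 7 other protein-coding genes in the count table that lie within 1 Mb of Dmd on chromosome X, 5 had 0 counts in every library (Tsga8, Fthl17a, 5430427O19Rik, Samt3 and Nr0b1), as did 25.3% of the 21927 protein-coding genes of the table. The other two were detected throughout. Tab3, an adaptor of TAK1 signalling, was at 20.6, 24.2 and 16.1 CPM in siUsf2 1 to 3, against 20.8, 20.5 and 23.1 CPM in siControl 1 to 3. Gk, glycerol kinase, was at 8.22, 6.76 and 8.20 CPM in siUsf2 1 to 3, against 7.64, 8.43 and 7.90 CPM in siControl 1 to 3.

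Drp2, dystrophin-related protein 2, a further relative of dystrophin best known from Schwann cells, was read at 96.0, 107 and 80.5 CPM in siUsf2 1 to 3, against 105, 108 and 117 CPM in siControl 1 to 3. Its difference in the 5 libraries was -0.13 on the log2 scale (adjusted p = 0.399 by edgeR, SE 0.09), and it is named here after its values were seen.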
